A study of Sus scrofa with 9 samples.

Results

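Antioxidant defence genes of the pig heart were followed over the first postnatal weeks: the NRF2 pathway regulators, superoxide dismutases and catalase, peroxiredoxins, glutathione peroxidases, and the enzymes of glutathione, thioredoxin, glutaredoxin, methionine sulfoxide, heme and ferritin metabolism. Of 40 listed genes, 36 had a row under their symbol among the 22629 rows of the expression table, and all 36 passed the filter on low values (12268 genes tested). PRDX1, TXN, GLRX and FTH1 had no row under their symbols and were not analysed here, apart from 1 row for PRDX1 described below.

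The tissue was left ventricular myocardium of wild type pigs without treatment, collected at 3 ages: postnatal day 0, postnatal day 7 and postnatal day 15 (3 libraries each). No other allele or agent is named for any age. RNA was sequenced from frozen tissue with a stranded mRNA protocol and is given as TPM, a length-normalised share of each library. Whether an age is represented by 3 animals or by fewer is not labelled, and p-values therefore cover only the spread among the libraries, which may be technical.

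Superoxide dismutases turn superoxide into hydrogen peroxide, which catalase, the peroxiredoxins and the glutathione peroxidases then remove. Peroxiredoxins are recharged by thioredoxin and thioredoxin reductase, and glutathione peroxidases by glutathione and glutathione reductase, all of which draw on NADPH. At birth the heart passes from the low oxygen of fetal life to oxygen-rich blood and to mitochondrial oxidation of fatty acids, and mitochondria are a main source of superoxide in heart muscle. NRF2, encoded by NFE2L2 and held in check by KEAP1, is the transcription factor best known for switching on many of these genes.

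Markers of ventricular cardiomyocytes were abundant at every age. Of 14 listed, 11 were found, with a summed level of 68627 to 78372 TPM at day 0, 58775 to 69264 TPM at day 7, with 54336 to 67900 TPM at day 15. Atrial markers (5 of 6 found) were uneven among libraries. They summed to 595, 2985 and 870 TPM at day 0, 459, 2364 and 175 TPM at day 7, with 192, 681 and 349 TPM at day 15. The sums were highest in day 0 replicate 5 and day 7 replicate 5, and the part of atrial tissue in other values was not tested. Each library listed 11290 to 12164 genes at 1 TPM or more, and the depth in reads is unknown. The most abundant gene, ENSSSCG00000032277, took 24.0% to 46.0% of all TPM, so all other values move with it, and the share was highest in day 15 replicate 1. Across genes, Pearson correlations were 0.965 to 0.991 for libraries of one age and 0.914 to 0.977 for libraries of different ages. Since this is bulk tissue, fewer cells of a type and less RNA per cell cannot be told apart.

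Together the 36 genes took 1956 TPM (day 7 replicate 6) to 2790 TPM (day 15 replicate 2), a 1.43-fold range, and their levels spanned 112.5-fold. The most abundant by mean over the 9 libraries were FTL, the ferritin light chain, at 245 TPM, and PRDX3, the mitochondrial peroxiredoxin, at 213 TPM. MGST3 and GPX4 followed at 165 TPM each. The least abundant was GCLC, the catalytic subunit of the enzyme that starts glutathione synthesis, at 2.18 TPM. Mean levels of at least 100 TPM were reached by 9 genes, 17 lay between 10 and 100 TPM, and 10 were below 10 TPM. Over all 9 libraries the highest value of 18 genes was less than 2 times the lowest, and 5 genes (HMOX1, GPX3, SOD3, MSRA and TXNIP) ranged more than 3-fold. HMOX1 ranged 9.86-fold, and the median gene of the set ranged 2.06-fold, against 2.28-fold for all genes tested.

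**Figure D1:**
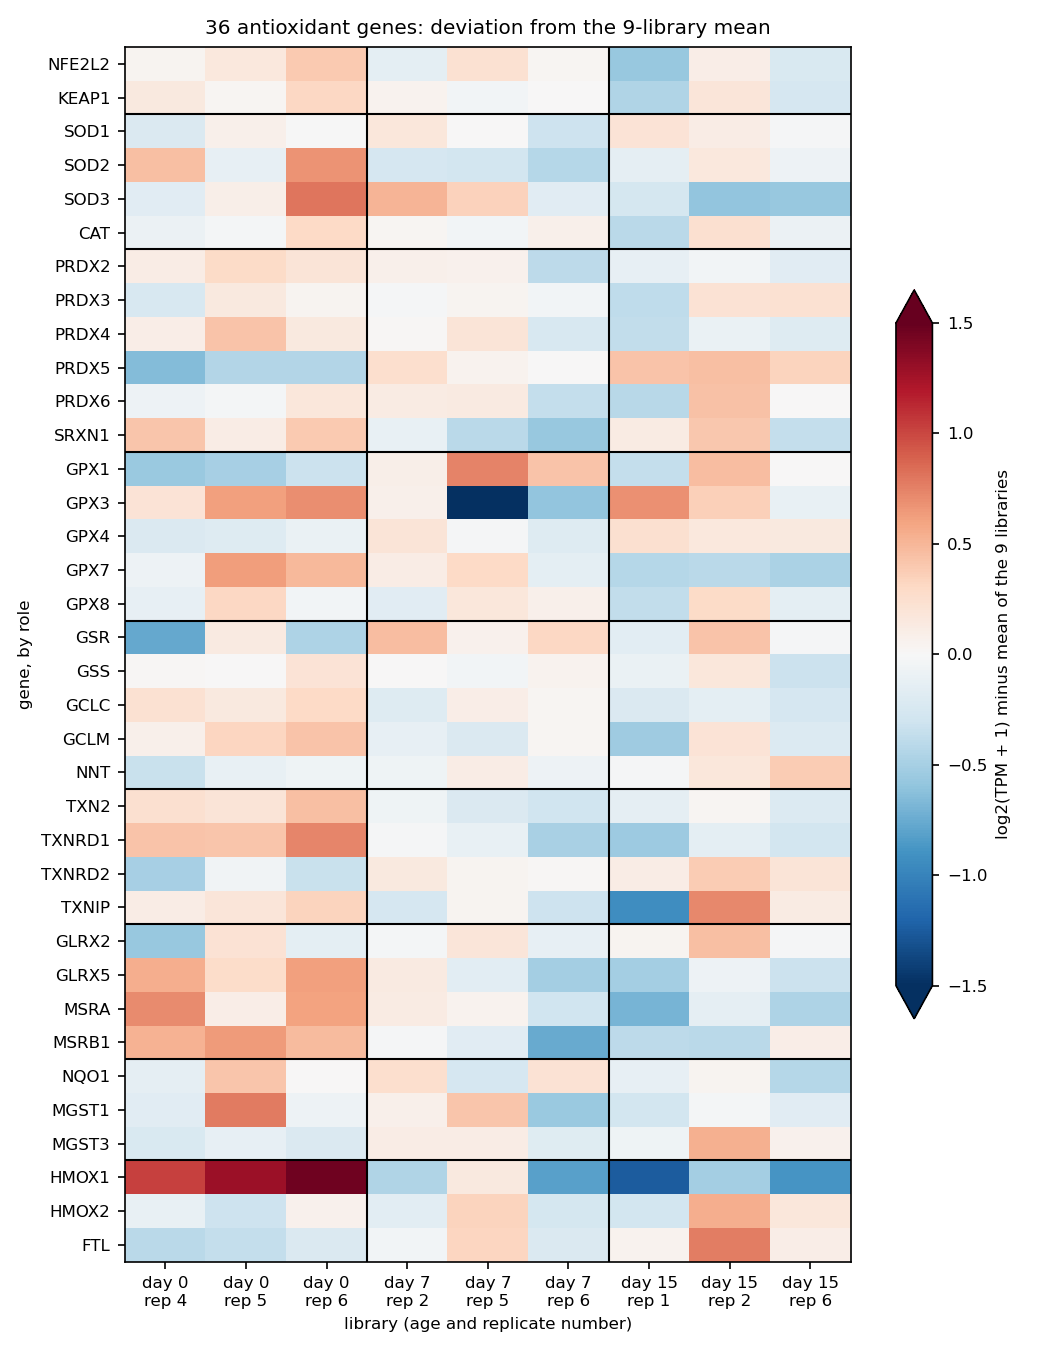
Deviation of each of the 36 genes (rows, in blocks by role) from its mean over the 9 libraries (columns, by age and replicate number), on the log2(TPM + 1) scale; colours stop at 1.5 in either direction. HMOX1 is dark red in the 3 day 0 libraries, and the single darkest blue cell is GPX3 in day 7 replicate 5 at 3.71 TPM.

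Between day 7 and day 0, 8 of the 36 genes passed the test (22.2%, against 16.6% of all genes tested). PRDX5 and GPX1 rose, against 7.67% of all genes, and HMOX1, GPX3, MSRB1, TXNRD1, GLRX5 and SOD2 fell, against 8.88% of all genes. A gene passed when its p, from limma on log2(TPM + 1) with Benjamini-Hochberg adjustment over all genes tested, was below 0.05. The median log2 change of the set was −0.11, against −0.04 for all genes. For 15 of the 36 genes (41.7%, near the 41.4% of all genes) the 3 day 7 values lay wholly apart from the 3 day 0 values: 3 genes were higher in every day 7 library, against 17.6% of all genes, and 12 were lower in every one, against 23.8%.

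Between day 15 and day 0, again 8 genes passed (22.2%, against 23.9% of all genes). PRDX5 and TXNRD2 rose, against 5.53% of all genes, and HMOX1, MSRA, TXNRD1, GLRX5, GPX7 and MSRB1 fell, against 18.4%. The median log2 change was −0.24, against −0.19 for all genes, and 17 genes (47.2%, against 39.9%) had no overlap between the ages. Of these, 6 were higher in every day 15 library, against 9.45% of all genes, and 11 were lower, against 30.5%. Both comparisons share the day 0 libraries. Summed over both directions, the counts of calls and of genes without overlap lay near those of all genes in the day 7 comparison, and the count of calls also in the day 15 comparison. By direction the counts are small. At day 7 the 6 falls make 16.7% of the 36 genes, against 8.88% of all genes, and the 2 rises 5.56%, against 7.67%. At day 15 the 6 falls make 16.7%, against 18.4%, and the 2 rises 5.56%, against 5.53%. Whether these shares differ from those of all genes was not tested. The day 7 split also moved with the setting. It was 5 rises and 6 falls with quantile normalization, and 6 and 4 in a rescaling described below. Without day 0 replicate 4 or 6, or day 7 replicate 6 (each alone), it was 0 and 1.

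Between day 15 and day 7 no member passed with limma (3 had an unadjusted p below 0.05), against 0.171% of all genes, and the smallest adjusted p was 0.281, for GPX3. No member passed the test of the first step (day 7 minus day 0) minus the second (day 15 minus day 7) either, against 1.92% of all genes; 6 had an unadjusted p below 0.05 and the smallest adjusted p was 0.0938.

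**Figure D2:**
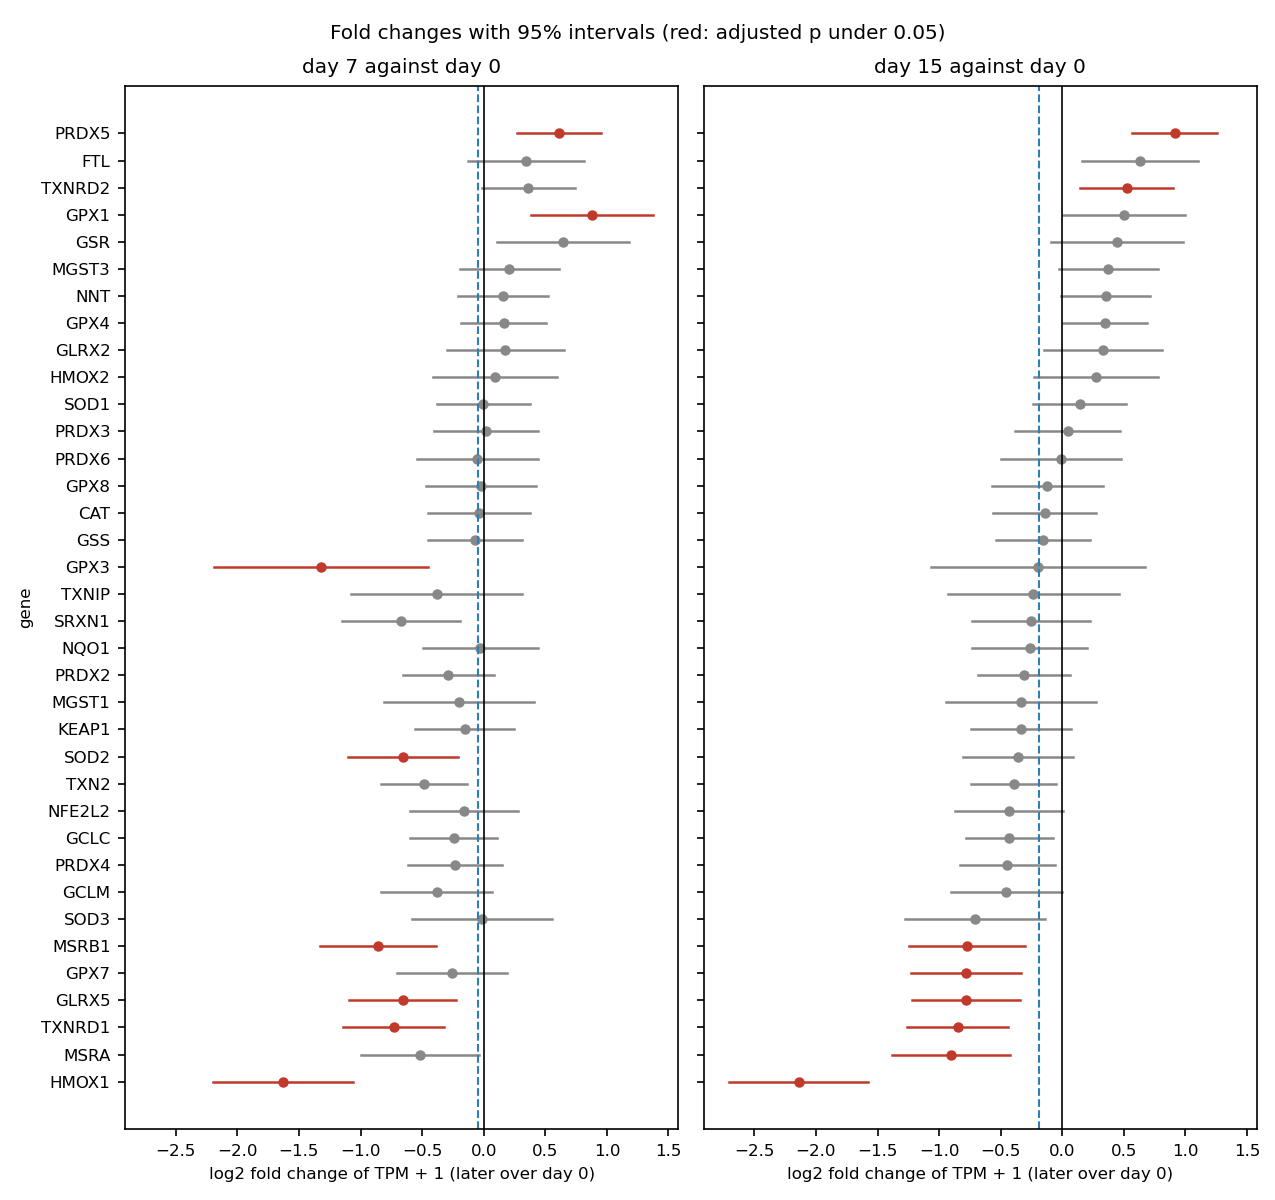
Log2 fold change of TPM + 1 for each of the 36 genes at day 7 (left) and day 15 (right) over day 0, with 95% intervals from limma; red marks an adjusted p below 0.05, the solid line is 0 and the dashed line the median of all genes tested. HMOX1 lies lowest in the day 15 panel at −2.14 and PRDX5 highest at 0.91.

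Heme oxygenases break heme down to biliverdin, carbon monoxide and iron, HMOX1 as the inducible form and HMOX2 as the constitutive one. HMOX1 was at 12.0, 14.5 and 16.4 TPM in the day 0 libraries, 3.64, 6.02 and 2.61 TPM in the day 7 libraries and 1.67, 3.45 and 2.44 TPM in the day 15 libraries. Every day 0 library lay above every later one, and days 7 and 15 overlapped. Mean levels were 14.3 ± 2.24 TPM at day 0, 4.09 ± 1.75 TPM at day 7 and 2.52 ± 0.892 TPM at day 15 (SD, n = 3 each). The log2 change was −1.63 ± 0.26 at day 7 (SE; adjusted p from limma 0.00450) and −2.14 ± 0.26 at day 15 (adjusted p 8.43e-04), both over day 0. By mean TPM the day 15 level was 0.176 of the day 0 level. The change from day 7 to day 15 was −0.51, with a 95% interval of −1.08 to 0.06 (adjusted p 0.433). This fall passed the test in all 20 alternative settings for both comparisons with day 0, and its log2 change ranged from −2.50 to −1.36 at day 15.

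HMOX2 had 31.9, 27.8 and 36.2 TPM at day 0, 31.0, 44.0 and 28.8 TPM at day 7, with 28.6, 51.2 and 39.2 TPM at day 15, with full overlap of the ages. Its log2 change at day 15 over day 0 was 0.27, with a 95% interval of −0.23 to 0.77. Within each library, the ratio of HMOX1 to HMOX2 was 0.375, 0.520 and 0.454 at day 0, 0.117, 0.137 and 0.0907 at day 7 and 0.0583, 0.0674 and 0.0624 at day 15. The 3 ages did not overlap in this ratio, which shows unequal change and does not depend on the scaling of the library.

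Macrophages that clear heme-rich red cells are known to express HMOX1, and markers of both cell types were read. Of 16 erythroid markers, 11 were found, and their summed level was 400 to 1272 TPM at day 0, 567 to 1230 TPM at day 7, with 446 to 669 TPM at day 15. Of the 4 erythroid markers tested, 2 (SPTB and GYPC) rose and none fell in both comparisons with day 0. Of all genes, 7.67% rose at day 7 and 5.53% at day 15. HBB, the most abundant of the 4, had 504, 1227 and 374 TPM at day 0, 1167, 809 and 526 TPM at day 7, with 396, 496 and 616 TPM at day 15. Its ages overlapped. Of 14 macrophage and monocyte markers, 13 were found, with sums of 71.6 to 88.3 TPM at day 0, 77.1 to 133 TPM at day 7, with 67.0 to 295 TPM at day 15. None of the 11 macrophage markers tested fell in either comparison with day 0, against 8.88% of all genes at day 7 and 18.4% at day 15. At day 7, 1 rose and at day 15, 2 rose, with CSF1R in both. CD163, the macrophage receptor for hemoglobin-haptoglobin, picked out after its values were seen, was at 19.8, 20.2 and 21.4 TPM at day 0, 7.19, 13.7 and 6.90 TPM at day 7, with 4.80, 23.7 and 8.78 TPM at day 15. Its change at day 7 over day 0 did not pass (log2 −1.12, adjusted p 0.0799). The part of these cells in the HMOX1 values was not tested.

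FTL, a subunit of the ferritin shell that stores iron, had 179, 186 and 205 TPM at day 0, 231, 297 and 204 TPM at day 7, with 247, 406 and 254 TPM at day 15. The day 15 libraries all lay above those of day 0. The log2 change at day 15 over day 0 was 0.63 ± 0.22 (SE) and narrowly missed the threshold (adjusted p from limma 0.0520). Day 15 replicate 2, the highest FTL library, also had the highest macrophage marker sum (295 TPM) and the highest sum of the 36 genes (2790 TPM). Without this library the FTL change was 0.40 with an adjusted p of 0.142. The part of macrophages in the FTL values was not tested. Leaving out either of day 7 replicates 5 and 6, or day 15 replicate 1, the FTL change passed, at 0.63, 0.63 and 0.76.

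The peroxiredoxin family was divided by PRDX5, which reduces peroxides in mitochondria, peroxisomes and cytosol. PRDX5 had 14.8, 17.3 and 17.3 TPM at day 0, 28.4, 24.6 and 24.0 TPM at day 7, with 32.3, 32.8 and 30.2 TPM at day 15. The 3 ages did not overlap, in rising order. Means were 16.5 ± 1.44 TPM, 25.7 ± 2.39 TPM and 31.8 ± 1.35 TPM at days 0, 7 and 15 (SD, n = 3 each). Its log2 change was 0.61 ± 0.16 at day 7 (SE; adjusted p from limma 0.0242) and 0.91 ± 0.16 at day 15 (adjusted p 0.00367), both over day 0. The step from day 7 to day 15, at 0.30, did not pass (adjusted p 0.444). Without day 0 replicate 4 or 6, or without any 1 of the day 7 libraries, the day 7 call was lost at log2 changes of 0.54 to 0.66 (adjusted p 0.0502 to 0.0986). In a fit with a block for the replicate number, described below, PRDX5 passed at neither age.

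PRDX3, the most abundant peroxiredoxin measured, stayed between 162 and 249 TPM in all libraries, with a log2 change at day 15 over day 0 of 0.04 (95% interval −0.38 to 0.47). The PRDX5 to PRDX3 ratio within a library was 0.0739 to 0.0828 at day 0, 0.113 to 0.136 at day 7 and 0.122 to 0.199 at day 15. Both later ages lay above day 0 throughout. PRDX2, a cytosolic member, had 135, 153 and 143 TPM at day 0, 131, 130.3 and 94.9 TPM at day 7, with 114, 122 and 111 TPM at day 15, lower at both later ages without overlap but short of the threshold (log2 −0.31 at day 15 over day 0, adjusted p 0.197). PRDX4, the endoplasmic reticulum form, had 40.0, 50.4 and 41.3 TPM at day 0, 37.7, 42.8 and 31.4 TPM at day 7, with 28.6, 34.6 and 32.4 TPM at day 15 (log2 −0.45 at day 15 over day 0, adjusted p 0.0845). PRDX6, which acts with glutathione, ranged from 58.4 to 106 TPM with no order by age (log2 −0.01 at day 15 over day 0, 95% interval −0.50 to 0.48).

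SRXN1, the sulfiredoxin that repairs over-oxidised peroxiredoxins, was scarce, at 3.88, 2.95 and 3.79 TPM at day 0, 2.39, 1.75 and 1.45 TPM at day 7, with 2.97, 3.85 and 1.85 TPM at day 15. Its day 7 libraries lay below all day 0 libraries, and the log2 change of −0.67 missed the threshold (adjusted p 0.0560). PRDX1, reached through the reference table of gene names and not through its symbol, had a row (ENSSSCG00000003914) with 113, 129 and 124 TPM at day 0, 107, 85.4 and 85.9 TPM at day 7, with 75.2, 109 and 70.9 TPM at day 15. It is not counted among the 36 genes. Its log2 change at day 15 over day 0 was −0.54 (adjusted p 0.0588).

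Thioredoxin reductases return thioredoxin to its reduced state with NADPH, TXNRD1 in the cytosol and TXNRD2 in mitochondria, and they moved in opposite directions. TXNRD1 had 49.1, 48.9 and 60.9 TPM at day 0, 35.9, 33.6 and 25.5 TPM at day 7, with 24.5, 32.6 and 29.8 TPM at day 15. All later libraries lay below all day 0 libraries. The log2 change was −0.73 ± 0.19 at day 7 (SE; adjusted p from limma 0.0242) and −0.85 ± 0.19 at day 15 (adjusted p 0.00942), both over day 0. The day 7 call was lost without day 0 replicates 4 or 6 (each alone) or day 7 replicate 6 (log2 −0.78, −0.63 and −0.59), and the day 15 call without day 0 replicate 6 (−0.75, adjusted p 0.0554). The day 15 call was also lost in a fit with a block for the replicate number, described below.

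TXNRD2 had 6.58, 9.35 and 7.55 TPM at day 0, 10.9, 10.1 and 9.86 TPM at day 7, with 10.6, 12.9 and 11.3 TPM at day 15. The libraries of both later ages lay above all those of day 0. Its log2 change was 0.36 at day 7 (adjusted p 0.161) and 0.52 ± 0.17 at day 15 (SE; adjusted p from limma 0.0463), both over day 0. The day 15 call stood close to the threshold and was lost in 10 of 20 settings, among them the fits without day 0 replicate 4 or 6, without any 1 of the day 7 libraries, and without day 15 replicate 2 or 6, at log2 changes of 0.42 to 0.54. Within a library, TXNRD1 stood at 7.47, 5.23 and 8.06 times the TPM of TXNRD2 at day 0, 3.31, 3.34 and 2.59 times at day 7 and 2.31, 2.52 and 2.64 times at day 15. Day 0 did not overlap with either later age in this ratio.

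TXN2, the mitochondrial thioredoxin that TXNRD2 serves, had 74.9, 72.5 and 86.9 TPM at day 0, 60.8, 54.4 and 51.3 TPM at day 7, with 57.6, 64.8 and 54.9 TPM at day 15. It was lower at both later ages without overlap and missed the threshold at each (adjusted p 0.0568 at day 7 and 0.0895 at day 15, both over day 0). The TXN2 to TXNRD2 ratio was 7.76 to 11.5 at day 0, 5.21 to 5.59 at day 7 and 4.85 to 5.43 at day 15. TXNIP, which binds thioredoxin and blocks it, had 148, 156 and 172 TPM at day 0, 115, 141 and 110.1 TPM at day 7, with 71.2, 226 and 149 TPM at day 15. With the wide day 15 spread no difference from day 0 was detectable (log2 −0.24 over day 0, 95% interval −0.93 to 0.46). Its sign depended on 1 library: the value was 0.21 without day 15 replicate 1 and −0.61 without day 15 replicate 2.

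**Figure D3:**
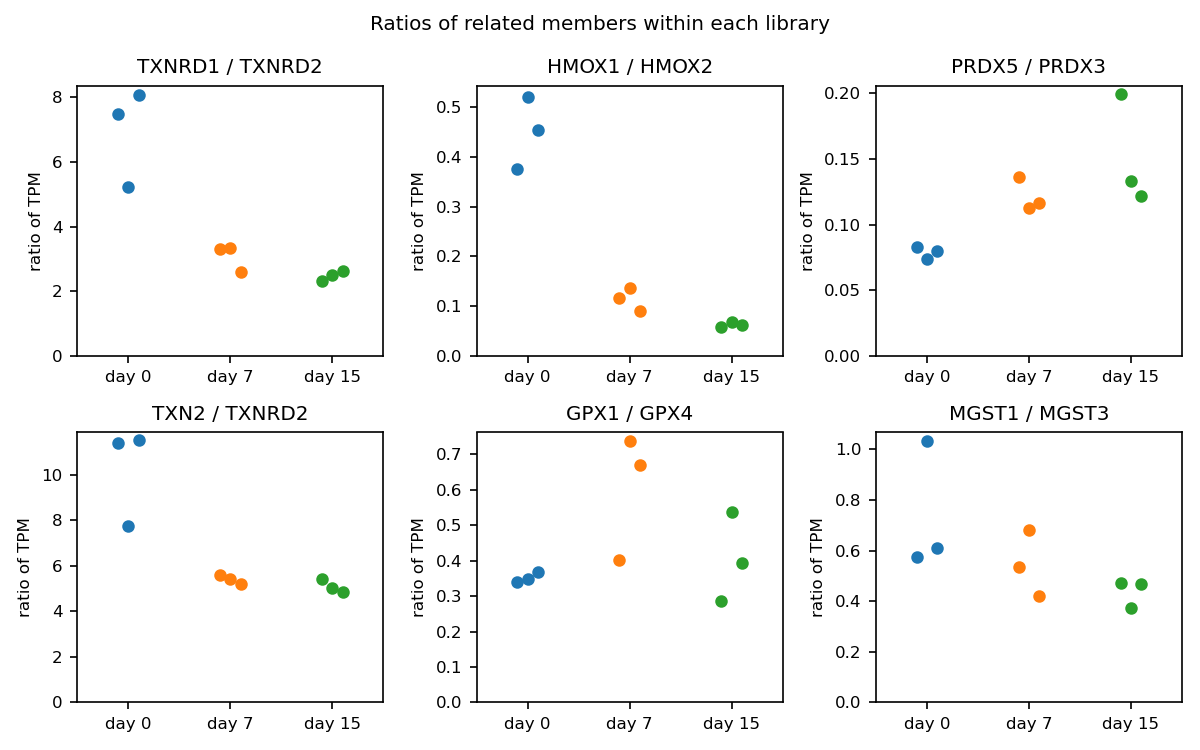
Ratios of TPM between related genes within each library (vertical axes, linear, from 0) at day 0, day 7 and day 15; each point is 1 library. TXNRD1 over TXNRD2 is 5.23 or more at day 0 and 3.34 or less later, HMOX1 over HMOX2 is 0.375 or more at day 0 and 0.137 or less later, and MGST1 over MGST3 overlaps between day 0 and day 7.

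Glutathione peroxidases reduce peroxides at the cost of glutathione, and their 5 measured members did not move together. GPX1, the abundant cytosolic and mitochondrial selenoenzyme, had 47.7, 49.8 and 56.4 TPM at day 0, 75.2, 119 and 95.6 TPM at day 7, with 55.3, 98.2 and 71.3 TPM at day 15. All day 7 libraries lay above all day 0 libraries, whereas day 15 replicate 1 fell within the day 0 range. The log2 change was 0.88 ± 0.23 at day 7 over day 0 (SE; adjusted p from limma 0.0245) and 0.50 ± 0.23 at day 15 over day 0 (adjusted p 0.125). The day 15 value was 0.29 (adjusted p 0.342) without day 15 replicate 2 and 0.70 (adjusted p 0.0527) without day 15 replicate 1. The first step minus the second was 1.26 (adjusted p 0.121). Without day 0 replicate 4 or 6, or day 7 replicate 5 or 6, the day 7 call was lost at log2 changes of 0.72 to 0.95.

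GPX3, the form secreted into plasma, had 19.8, 26.5 and 28.1 TPM at day 0, 18.0, 3.71 and 10.9 TPM at day 7, with 27.9, 21.9 and 15.6 TPM at day 15. All day 7 libraries lay below those of day 0, while days 7 and 15 overlapped, and the day 7 values ranged most widely. The log2 change at day 7 over day 0 was −1.32 ± 0.40 (SE; adjusted p from limma 0.0427). Without day 7 replicate 5, the lowest library, the change was −0.76 (adjusted p 0.0992). The call was also lost without day 0 replicate 4, 5 or 6 or day 7 replicate 6, at −1.47, −1.27, −1.23 and −1.43. The step from day 7 to day 15 was 1.13, with a 95% interval of 0.25 to 2.00, and did not pass (adjusted p 0.281).

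GPX4, which reduces lipid hydroperoxides in membranes, had 140.5, 143 and 153 TPM at day 0, 187, 161 and 143 TPM at day 7, with 194, 183 and 181 TPM at day 15. All day 15 libraries lay above day 0, at a log2 change of 0.35 that did not pass (adjusted p 0.121). GPX7 and GPX8 are peroxidases of the endoplasmic reticulum. GPX7 had 12.8, 21.6 and 19.3 TPM at day 0, 14.7, 16.9 and 12.2 TPM at day 7, with 9.81, 9.98 and 9.51 TPM at day 15. The day 15 libraries were tightly grouped below all others. GPX7 fell at day 15 over day 0 by 0.78 ± 0.21 on the log2 scale (SE; adjusted p from limma 0.0187), a call lost without day 0 replicate 5 or 6 or day 15 replicate 6 (−0.64, −0.71 and −0.76). GPX8 ranged from 11.2 to 18.5 TPM with full overlap of the ages (log2 −0.12 at day 15 over day 0, 95% interval −0.57 to 0.33).

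Cells other than muscle can also hold GPX7 and GPX3 transcript, and their markers were read as well. The 10 pericyte and smooth muscle markers summed to 492 to 705 TPM at day 0, 366 to 475 TPM at day 7, with 304 to 331 TPM at day 15, with no overlap between any of the ages. At day 15 over day 0, 5 of 10 fell, against 18.4% of all genes, and 1 rose, against 5.53%. The 12 fibroblast markers summed to 1073 to 1628 TPM at day 0, 1785 to 2494 TPM at day 7, with 1368 to 1634 TPM at day 15. Every day 7 sum lay above those of both other ages. Over day 0, 3 of the 12 rose at day 7 and 1 at day 15 (5.53% of all genes), and none fell. Of 12 endothelial markers, 11 were found, with sums of 550.2 to 672 TPM, 485 to 619 TPM and 485 to 505 TPM at days 0, 7 and 15. Their members did not move together: 2 of 11 rose and 2 fell at day 7 over day 0. FABP4 weighs on the sum, with 212 to 293 TPM at day 0 and 54.9 to 116 TPM at day 7. PECAM1 had 77.3 to 103 TPM at day 0 and 128 to 159 TPM at day 7, and CDH5 27.7 to 37.5 TPM and 61.3 to 68.4 TPM. The shares of all genes at day 7 were 7.67% for rises and 8.88% for falls. None of these lists had a member at 0 in every library. Their part in the GPX7 and GPX3 values was not tested.

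Among the superoxide dismutases, SOD2, the manganese enzyme of the mitochondrial matrix, had 176, 117 and 205 TPM at day 0, 108, 106 and 94.8 TPM at day 7, with 116, 143 and 121 TPM at day 15. The day 7 libraries lay below both other ages, and day 0 was widely spread. SOD2 fell at day 7 over day 0 by 0.65 ± 0.21 on the log2 scale (SE; adjusted p from limma 0.0489). This was the least stable call: it was lost in 14 of 20 settings, including the fits without day 0 replicate 4 or 6, any 1 of the day 7 libraries or day 15 replicate 6, at −0.69 to −0.48. Nuclear genes of mitochondrial mass, of which 12 of 15 were found, summed to 5439 to 6335 TPM at day 0, 4203 to 5387 TPM at day 7, with 4639 to 5597 TPM at day 15, and their part in the SOD2 values was not tested.

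SOD1, the cytosolic copper-zinc enzyme, lay between 112 and 160.4 TPM in all libraries, and its log2 change was 0.14 at day 15 over day 0 (95% interval −0.24 to 0.52). SOD3, the extracellular form, had 3.08, 3.91 and 7.05 TPM at day 0, 5.58, 4.85 and 3.09 TPM at day 7, with 2.84, 2.06 and 2.11 TPM at day 15. Its day 15 libraries lay below all others, at a log2 change of −0.71 over day 0 (adjusted p 0.0654). The value depended on the day 0 libraries: without replicate 4 it was −0.92 and passed (adjusted p 0.0441), and without replicate 6 it was −0.43 (adjusted p 0.278). CAT, the peroxisomal catalase, ranged from 66.8 to 109.6 TPM with no order by age (log2 −0.14 at day 15 over day 0, 95% interval −0.56 to 0.27).

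Of 4 glutaredoxins and methionine sulfoxide reductases, 2 fell at day 7 (8.88% of all genes) and 3 at day 15 (18.4% of all genes) over day 0. GLRX5, a mitochondrial glutaredoxin of iron-sulfur cluster assembly, had 169.8, 141 and 178 TPM at day 0, 127, 103 and 81.5 TPM at day 7, with 81.1, 110.4 and 92.5 TPM at day 15. Every later library lay below every day 0 library. Its log2 change was −0.66 ± 0.20 at day 7 (SE; adjusted p from limma 0.0431) and −0.78 ± 0.20 at day 15 (adjusted p 0.0164), both over day 0. The day 7 call was lost without day 0 replicate 4 or 6, day 7 replicate 5 or 6, or day 15 replicate 6 (−0.67 to −0.49), and the day 15 call without day 0 replicate 4 or 6 or day 15 replicate 1 or 6 (−0.77 to −0.68). GLRX2, another mitochondrial glutaredoxin, had 11.0, 19.8 and 15.1 TPM at day 0, 16.5, 19.3 and 15.4 TPM at day 7, with 17.4, 23.5 and 16.7 TPM at day 15, and the ages overlapped (log2 0.33 at day 15 over day 0, adjusted p 0.287).

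MSRB1 and MSRA repair oxidised methionine, each acting on one stereoisomer of the sulfoxide, and MSRB1 is a selenoprotein. MSRB1 had 87.0, 95.1 and 84.6 TPM at day 0, 59.9, 53.5 and 35.5 TPM at day 7, with 45.8, 45.6 and 65.0 TPM at day 15. Every later library lay below those of day 0. Its log2 change was −0.86 ± 0.22 at day 7 (SE; adjusted p from limma 0.0217) and −0.78 ± 0.22 at day 15 (adjusted p 0.0237), both over day 0. Leaving out day 0 replicate 4 or 6 or day 7 replicate 6 lost the day 7 call (−0.89 to −0.64), and leaving out any 1 of the day 0 libraries or day 15 replicate 1 or 2 lost the day 15 call (−0.81 to −0.69).

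MSRA had 8.30, 5.11 and 7.64 TPM at day 0, 5.19, 4.89 and 3.62 TPM at day 7, with 2.51, 4.19 and 3.12 TPM at day 15. The day 15 libraries lay below all day 0 libraries, with day 7 between and overlapping both. Its fall at day 15 over day 0 was −0.90 ± 0.22 on the log2 scale (SE; adjusted p from limma 0.0135), and it was lost without day 0 replicate 4 or 6 or day 15 replicate 6 (−0.78, −0.84 and −0.89). At day 7 over day 0 the value was −0.51 (adjusted p 0.121).

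**Figure D4:**
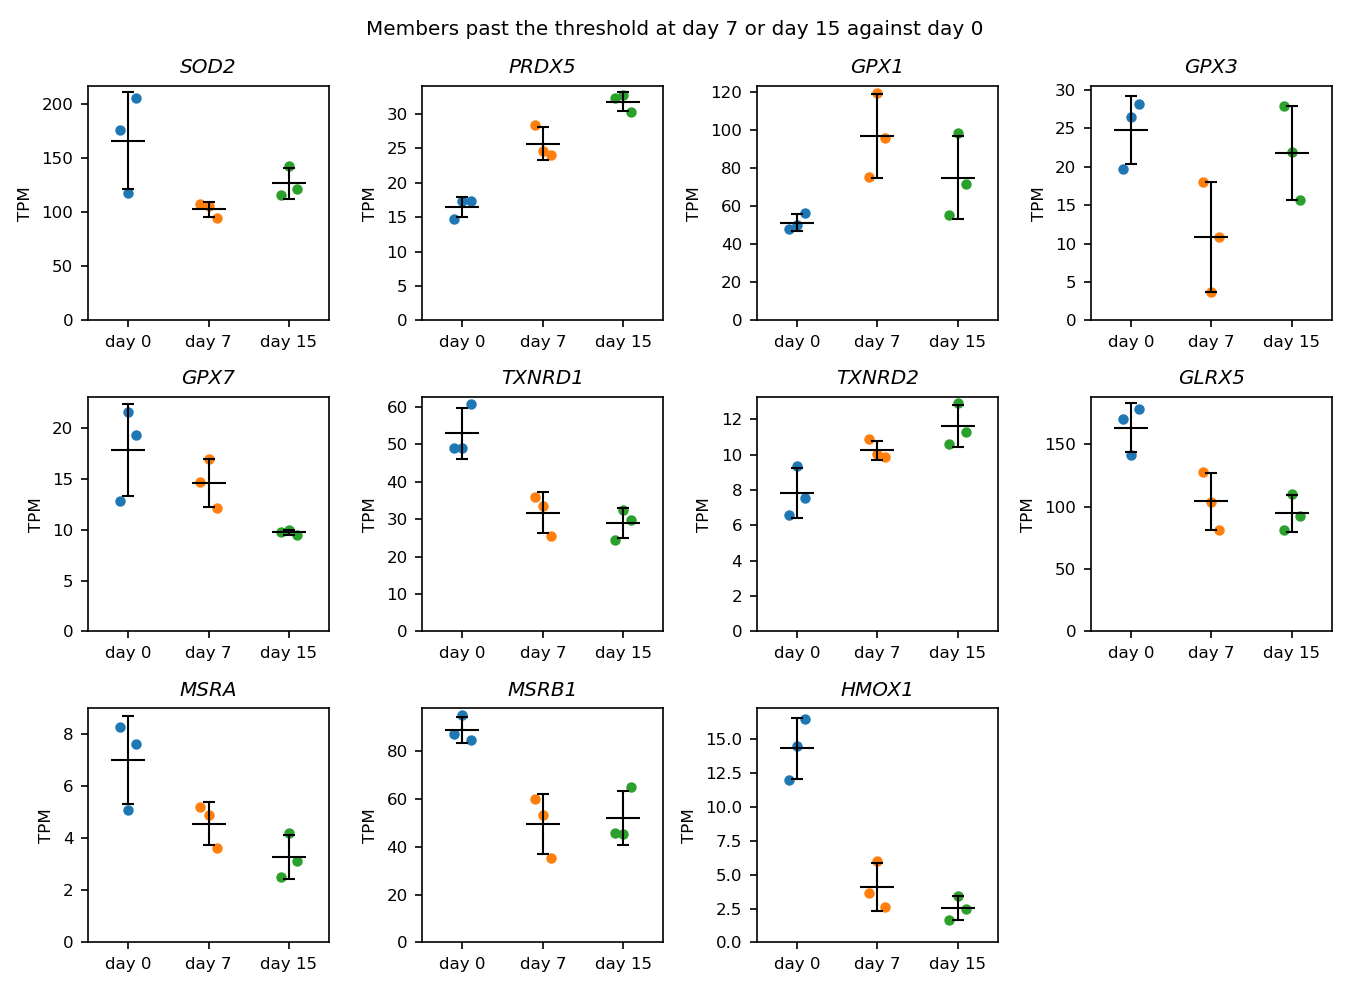
TPM of the 11 genes that passed the test at day 7 or day 15 over day 0, with 1 point per library; horizontal bars are means and error bars SD (n = 3 per age), and the linear axes start at 0. PRDX5 separates the 3 ages (14.8 to 17.3, 24.0 to 28.4 and 30.2 to 32.8 TPM), and GPX3 spreads from 3.71 to 18.0 TPM at day 7.

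Glutathione synthesis and recycling genes gave no call, and they were among the least abundant of the set. GCLC had 2.70, 2.49 and 2.87 TPM at day 0, 1.77, 2.38 and 2.22 TPM at day 7, with 1.72, 1.84 and 1.65 TPM at day 15. Both later ages lay below day 0 without overlap, at log2 −0.43 at day 15 over day 0 (adjusted p 0.0722). GCLM, the modifier subunit of the same enzyme, had 2.86, 3.59 and 3.94 TPM at day 0, 2.37, 2.15 and 2.73 TPM at day 7, with 1.53, 3.22 and 2.18 TPM at day 15 (log2 −0.45 at day 15 over day 0, adjusted p 0.127). GSS, which completes the tripeptide, lay between 4.47 and 6.88 TPM throughout (log2 −0.16, 95% interval −0.54 to 0.22). GSR, which recycles oxidised glutathione, had 2.99, 6.48 and 3.94 TPM at day 0, 8.37, 6.08 and 7.42 TPM at day 7, with 5.07, 8.14 and 5.71 TPM at day 15. Day 0 replicate 5 overlapped the later ages, and the log2 change of 0.64 at day 7 over day 0 did not pass (adjusted p 0.0907).

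NNT, the inner membrane transhydrogenase that makes NADPH in mitochondria, was far more abundant, at 75.6, 88.5 and 91.3 TPM at day 0, 91.5, 103 and 90.3 TPM at day 7, with 94.7, 108 and 125 TPM at day 15. Its day 15 libraries lay above all those of day 0 (log2 0.35, adjusted p 0.141). Among the microsomal glutathione transferases, MGST3 had 139, 149.7 and 139.8 TPM at day 0, 177, 176 and 144 TPM at day 7, with 157, 237 and 170.3 TPM at day 15. The day 15 libraries again lay above day 0 without a call (log2 0.37, adjusted p 0.158). MGST1 reached 155 TPM in day 0 replicate 5 and 60.8 to 120.1 TPM elsewhere, without order by age. NQO1, the NAD(P)H quinone reductase, ranged from 5.20 to 10.2 TPM, and its log2 change at day 15 over day 0 was −0.27 (95% interval −0.73 to 0.20).

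NFE2L2 had 36.6, 40.0 and 47.0 TPM at day 0, 32.0, 41.9 and 36.4 TPM at day 7, with 23.6, 38.4 and 30.3 TPM at day 15. KEAP1, the adaptor that marks NRF2 for degradation, had 32.8, 30.3 and 37.1 TPM at day 0, 30.8, 28.7 and 29.8 TPM at day 7, with 21.4, 33.7 and 24.6 TPM at day 15. The ages overlapped for both genes, and neither passed at day 15 over day 0 (log2 −0.43, adjusted p 0.136, and −0.34, adjusted p 0.201). The NFE2L2 to KEAP1 ratio lay between 1.04 and 1.46 in all 9 libraries. NRF2 is regulated mainly through the stability of its protein, which was not measured.

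Among 8 widely cited NRF2 targets in the set (NQO1, GCLC, GCLM, TXNRD1, SRXN1, HMOX1, GSR and FTL), HMOX1 and TXNRD1 fell in both comparisons with day 0, none rose and 6 did not pass; among all genes 8.88% fell at day 7 and 18.4% at day 15. The median log2 change was −0.31 at day 7, against −0.04 for all genes, and −0.35 at day 15, against −0.19 for all genes. Of 6 selenoproteins (GPX1, GPX3, GPX4, TXNRD1, TXNRD2 and MSRB1), 1 rose and 3 fell at day 7, where 7.67% of all genes rose and 8.88% fell. At day 15, where 5.53% of all genes rose and 18.4% fell, 1 selenoprotein rose and 2 fell. Of 8 mitochondrial members (SOD2, PRDX3, PRDX5, TXN2, TXNRD2, GLRX2, GLRX5 and NNT), 1 rose and 2 fell at day 7, and 2 rose and 1 fell at day 15, beside the same shares of all genes. Their median log2 change at day 15 was 0.19, against −0.24 for the set and −0.19 for all genes. PRDX5, which also acts in peroxisomes and cytosol, was counted among these 8, whereas GPX1, both cytosolic and mitochondrial, was not. The counts depend on this choice. The groups of this paragraph were chosen with results of these data known, so their counts and medians are descriptions and test nothing. Of 5 endoplasmic reticulum and secreted members, GPX3 fell at day 7 and GPX7 at day 15.

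Which genes were called at day 15 over day 0 depended on the scaling of the libraries. With the deposited TPM the median of all genes lay at −0.19 on the log2 scale and 23.1% of all called genes were higher at day 15. With median-of-ratios scaling the median was 0.01 and that share was 49.3%. Of all genes, 31% were called under that scaling, in place of 23.9%. Among the members 9 rose and 5 fell, in place of 2 and 6. PRDX5 and TXNRD2 still rose, joined by GPX1, GPX4, HMOX2, GLRX2, MGST3, NNT and FTL, and HMOX1, MSRA, TXNRD1, GLRX5 and GPX7 still fell. FTL then stood at 0.87 (adjusted p from limma 0.00294), GPX1 at 0.74, MGST3 at 0.61, GPX4 at 0.59 and NNT at 0.59. MSRB1, at −0.54, no longer passed. Quantile normalization gave 9 rises and 5 falls as well, and rescaling without the most abundant gene gave 7 and 6. These fits called 30.7% and 30.8% of all genes. None of the 11 called genes changed sign under any scaling in the comparison where it was called. At day 7 over day 0 the split was 4 rises and 6 falls with median-of-ratios scaling, in place of 2 and 6. It was 6 rises and 4 falls after rescaling with mitochondrially encoded genes and the top 20 genes by abundance left out. Calls over all genes grew there too, from 16.6% to 30.9% and 29.3%, in that order.

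**Figure D5:**
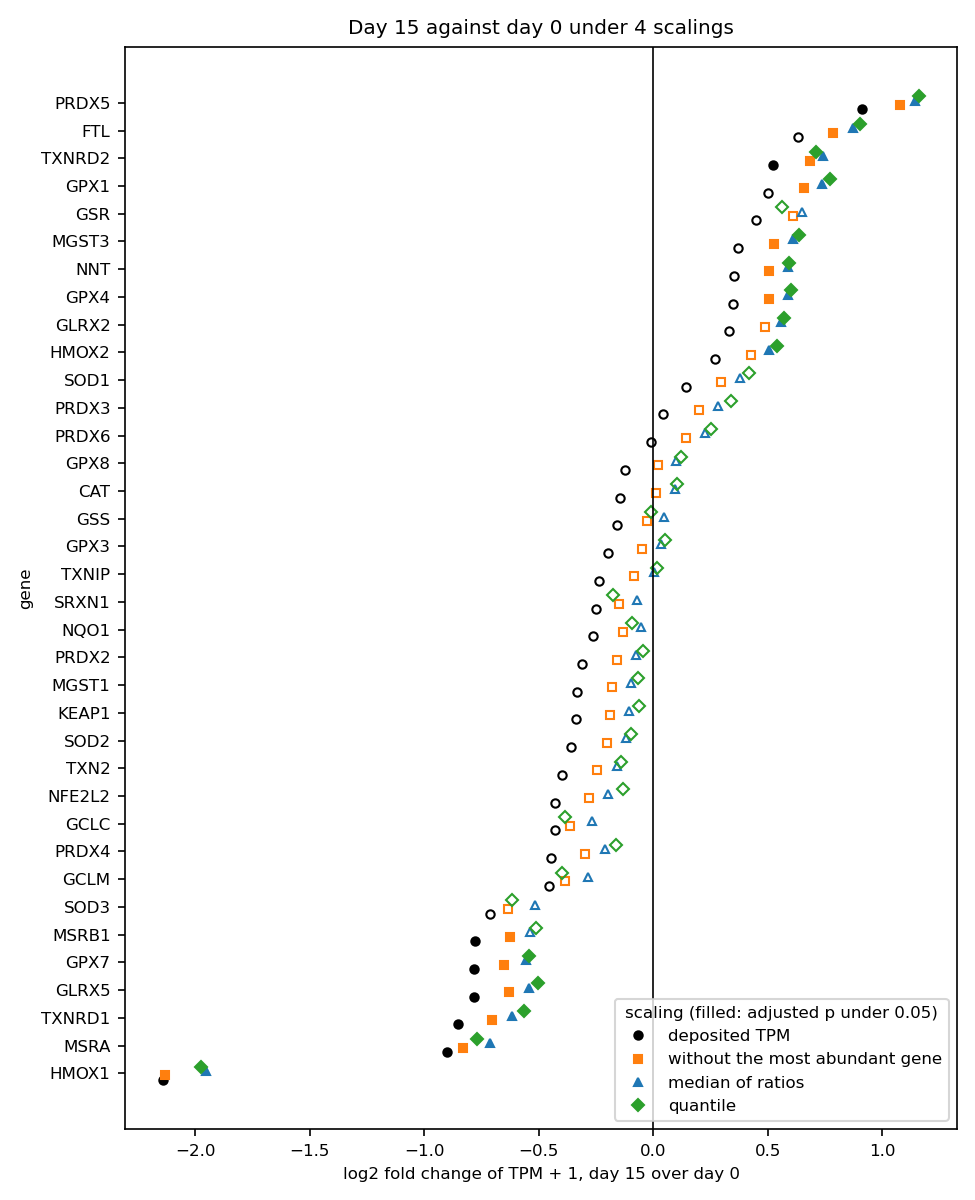
Log2 fold change of TPM + 1 at day 15 over day 0 for the 36 genes under 4 scalings; filled symbols have an adjusted p from limma below 0.05. Nearly the whole column shifts to the right from deposited TPM to the other scalings, so that 9 genes are filled right of 0 under median-of-ratios scaling in place of 2, while HMOX1 stays near −2 throughout.

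Other genes of the same pathways, from lists outside the 36, are read against the same shares of all genes: 7.67% rose and 8.88% fell at day 7, and 5.53% rose and 18.4% fell at day 15, over day 0. Of 18 further glutathione genes tested, 5 fell at day 7 and 6 at day 15 over day 0, and none rose. CHAC1, the cytosolic enzyme that degrades glutathione, had 3.99, 5.89 and 5.39 TPM at day 0, 0.108, 0.148 and 0.170 TPM at day 7, with 0.120, 0.135 and 0.142 TPM at day 15. It was near absent at both later ages, and its log2 change on the TPM + 1 scale was −2.40 at day 7 (adjusted p from limma 4.56e-05) and −2.41 at day 15. SLC3A2, the heavy chain that carries the cystine transporter and other amino acid transporters to the membrane, had 70.9, 63.6 and 97.9 TPM at day 0, 18.7, 19.4 and 18.3 TPM at day 7, with 15.0, 23.6 and 15.2 TPM at day 15 (log2 −1.96 at day 7 and −2.06 at day 15). GSTA4, which conjugates the lipid peroxidation product hydroxynonenal, fell by 1.12 at day 7 and 1.22 at day 15, and OPLAH, the 5-oxoprolinase of the glutathione cycle, by 0.84 at day 7 and 1.07 at day 15. The day 7 calls were lost without day 0 replicate 6 for GSTA4 (−1.04) and OPLAH (−0.64), and for OPLAH also without day 0 replicate 4 (−0.85) or day 7 replicate 6 (−0.79).

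Of 14 NADPH supply genes tested, 2 fell and 1 rose at day 7, and 7 fell and 1 rose at day 15, over day 0; of all genes 8.88% fell at day 7 and 18.4% at day 15. PGD, a dehydrogenase of the pentose phosphate pathway, had 124, 61.1 and 133 TPM at day 0, 36.3, 41.5 and 30.3 TPM at day 7, with 30.7, 36.8 and 34.1 TPM at day 15. No later library reached the lowest day 0 value, and the log2 change was −1.46 at day 7 and −1.54 at day 15 (adjusted p from limma 0.00632 and 0.00335). NADK, which phosphorylates NAD, fell by 0.78 at day 7 and 1.09 at day 15. ALDH1L2, a mitochondrial folate enzyme that yields NADPH, rose by 0.82 at day 7 and 0.67 at day 15. IDH2, the most abundant gene of the list, had 635, 645 and 691 TPM at day 0, 795, 616 and 521 TPM at day 7, with 663, 629 and 642 TPM at day 15, a log2 change of −0.03 at day 15 (95% interval −0.41 to 0.35).

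In the heme and iron list, 1 gene of 14 rose and 1 fell at day 7, and 1 rose and 2 fell at day 15. BLVRA, which turns biliverdin into bilirubin, had 3.81, 7.88 and 3.78 TPM at day 0, 11.1, 11.4 and 10.8 TPM at day 7, with 11.8, 10.8 and 11.8 TPM at day 15, above day 0 in every later library. Its log2 change was 1.04 at day 7 (adjusted p from limma 0.0129) and 1.08 at day 15 (adjusted p 0.00788), and the day 7 call was lost without day 0 replicate 4 (0.89) or 6 (0.88). NCOA4, the receptor that sends ferritin to lysosomes, fell by 0.81 at day 7 and 0.82 at day 15, and PCBP2, an iron chaperone, fell by 0.70 at day 15. Of 7 copper supply and metallothionein genes, CCS alone passed, at day 15. This copper chaperone of SOD1 had 6.55, 16.6 and 11.4 TPM at day 0, 18.1, 23.0 and 15.7 TPM at day 7, with 19.4, 23.7 and 23.4 TPM at day 15. The rise at day 15 was 0.97 (adjusted p from limma 0.0235), and it was lost without day 0 replicate 4 or 6 or day 15 replicate 6 (0.65, 1.00 and 0.93).

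Of 15 genes of selenoprotein synthesis and other selenoproteins, 1 rose and 3 fell at each later age. EEFSEC, the elongation factor that delivers selenocysteine, fell by 0.64 at day 7 and 1.03 at day 15. SELENOF and SELENOT, both of the endoplasmic reticulum, fell by 0.69 and 0.72 at day 7 and by 1.03 and 0.67 at day 15. SELENON rose at day 7 by 0.62 and SCLY, the selenocysteine lyase, at day 15 by 0.63. SELENOW, the most abundant, ranged from 1019 to 2450.5 TPM with no order by age. Of 13 other thiol redox genes, 3 fell at day 7 (SESN2, TXNDC17 and GLRX3) and 2 at day 15, and none rose. SESN2, a stress-induced regulator, had 1.98, 3.55 and 2.46 TPM at day 0, 0.307, 0.368 and 0.322 TPM at day 7, with 0.460, 0.874 and 0.586 TPM at day 15.

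Among NRF2 partners 1 gene passed: of 8 tested, MAFK, a small Maf protein that pairs with NRF2, fell at day 7 by 0.71 (adjusted p from limma 0.0417), and none passed at day 15. Among 11 oxidant-producing enzymes, NOX4, an NADPH oxidase that releases hydrogen peroxide, rose at day 7 by 0.56, with 0.942 to 1.34 TPM at day 7 against 0.350 to 0.579 TPM at day 0. MAOA, the outer membrane amine oxidase, fell by 0.62 at day 7 and 0.94 at day 15, with 11.8, 13.3 and 14.9 TPM at day 0, 7.92, 9.32 and 7.58 TPM at day 7, with 6.69, 6.11 and 6.53 TPM at day 15. P4HB, protein disulfide isomerase, fell by 0.89 at day 15. No gene of these 8 further lists passed between day 15 and day 7.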

How the data were processed

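The authors deposited 1 table of TPM with 1 column per library, all of which were used (0 columns were left out). Per the submitters' processing notes, the tools included Trimmomatic 0.33, HISAT2 2.0.5 and kallisto 0.43.1, with no role or order stated. Build, annotation and use of strand: not given in the sources used here. Per the labels' protocols, RNA came from a NucleoSpin kit and libraries from Illumina TruSeq stranded mRNA. TPM keeps no depth, so no counting interval is given. Genes with close copies, such as ferritin, are less certain, as the handling of shared reads is not known.

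Genes with at least 1 TPM in at least 3 libraries (12268) were fitted as log2(TPM + 1), a scale that understates changes of low genes, with limma 3.58.1 in R 4.3.3: 1 mean per age over all 9 libraries, empirical Bayes moderation along the mean-variance trend, with 6 residual degrees of freedom, Benjamini-Hochberg adjustment over all genes, threshold 0.05. The limma step was run on simulated data with independent normal noise and no shift of whole libraries. That check therefore does not cover the effects of scaling. Exact permutation of 3 against 3 libraries cannot go below a two-sided p of 0.10 and was not used.

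Named genes were all members found, and from each further list and contrast up to 4 genes with the smallest adjusted p and the most abundant gene; the text gives a part of these. Members and lists were chosen with earlier results of these data known. Of 7534 rows listed by Ensembl identifier, 915 matched the reference table of gene names and 889 gained a symbol. Alternatives were other pseudocounts, filters, scalings and fits, a block for the replicate number, and fits without each library in turn.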

Additional observations from a re-analysis of the deposited data

Results flagged for a closer look

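Among the 36 antioxidant genes none had a change in the first week that differed from that in the second past the threshold. In the pathway and marker lists 7 genes did, by limma's test of the first step (day 7 minus day 0) minus the second step (day 15 minus day 7), on the log2(TPM + 1) scale. Of all genes tested, 1.92% did. Among further glutathione genes 2 of 18 tested passed, among other thiol redox genes 1 of 13 and among oxidant-producing enzymes 1 of 11. Of 11 endothelial markers, 2 passed with a positive and 1 with a negative difference. No gene of the other lists passed. CHAC1 differed by −2.39 (adjusted p 0.00696), with steps of −2.40 and −0.01. SLC3A2 differed by −1.87 (adjusted p 0.0330), with steps of −1.96 and −0.09. SESN2 differed by −1.73 (adjusted p 0.0328), with steps of −1.44 and 0.29. For these genes the day 0 libraries stood above all later ones.

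XDH, a source of superoxide, differed by 3.94 (adjusted p 0.0412) and is scarce and scattered, with 1.08, 2.96 and 1.68 TPM at day 0, 8.16, 2.07 and 16.4 TPM at day 7, with 0.334, 1.04 and 0.104 TPM at day 15. This call was lost in 12 of 18 settings. FABP4 differed by −2.91 (adjusted p 0.0144), with 212, 293 and 267 TPM at day 0, 116, 54.9 and 65.2 TPM at day 7, with 161, 182 and 161 TPM at day 15. The endothelial junction genes CDH5 and PECAM1 differed by 1.59 (adjusted p 0.0332) and 1.43 (adjusted p 0.0340), and both were highest in the 3 day 7 libraries. FABP4 belongs to the same list of endothelial markers and moved the opposite way. No cause was tested for these differences.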

How the results depend on the processing

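None of the called members changed sign in its called comparison under any of the 20 alternatives, and HMOX1 passed in all of them. Every other call of a member was lost in at least 1 alternative. The losses named gene by gene above are mainly those of fits without 1 library, and other alternatives lost calls too. At day 7 over day 0, 8 members were called; no filter on low values gave 4, and leaving out each library in turn gave 1 to 10. Only 1 was called without day 0 replicates 4 or 6 (each alone) or day 7 replicate 6. At day 15 over day 0, 8 members and 23.9% of all genes were called. Median-of-ratios scaling, quantile normalization and rescaling with mitochondrially encoded genes and the top 20 genes by abundance left out gave 14 members each. These scalings called 31%, 30.7% and 29.1% of all genes. Rescaling without the most abundant gene gave 13 members (30.8% of all genes). Leaving out each library gave 2 (without day 0 replicate 6) to 9 members, with 6.65% to 26.6% of all genes called. Between day 15 and day 7 every alternative gave 0. For the difference between the steps, the first 3 of these scalings gave 1 (GPX1), and leaving out each library gave 0 to 1 (SOD2 without day 0 replicate 5). Of all genes, 4.76%, 4.51% and 5.31% were called in those scalings, and 5.98% without day 0 replicate 5. Same-numbered libraries correlated at −0.213 to 0.170 in their deviations from the age means, with 1 of 5 pairs over 0.1. Differently numbered libraries correlated at −0.335 to 0.372. So few pairs cannot decide whether a number marks a shared animal, litter or batch, and no label says so. With the replicate block the count was 2 at day 7 and 1 (HMOX1) at day 15 over day 0, all falls. Of all genes, 6.99% and 7.49% were called there. The cause of these shifts was not tested. Depth is unknown, so genes near 1 TPM are the least certain.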
